A study of Mus musculus with 12 samples.

Results

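The genes Ndrg4, Ccdc92, Fam171b, Clca6, Aqp5, Chst5, Zfp365 and Gm567 were described across 12 arrays of mouse skeletal muscle. They were chosen on their levels in old TauTKO muscle, which stood above those of the other 3 groups, and they were measured by 10 of the 55681 probes of the array (8 of 34821 gene names). Because those levels chose them, each value that involves old TauTKO is given as a description, with no test. TauTKO mice lack the taurine transporter, encoded by Slc6a6, in the whole animal, and the study used them to ask what taurine loss does to ageing muscle. RNA came from the tibial anterior muscle of male C57BL6 mice and was hybridised with 1 dye to 1 array per sample. The 4 groups of 3 were young wild type (WT) and young TauTKO at 3 months, and old WT and old TauTKO at 18 months. The study's methods give littermates from heterozygous parents and a wider age range for the old mice than the labels.

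Taurine is an organic osmolyte that muscle takes up from the blood through this transporter, and skeletal muscle holds large amounts of it. Loss of an osmolyte changes the water balance of a cell, and genes for water channels, ion channels and other osmolyte transporters belong to the usual response. Aqp5, Clca6 and Chst5 are best known from secretory and lining epithelia, and Ndrg4, Fam171b and Zfp365 from nervous tissue. None of the 8 is a standard marker of resting muscle fibres.

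The 60-base probes tell which stretch of each transcript was measured, and the first 30 bases of those that carry the results below are shown as the array files give them, with positions in build mm9. Each is written in lower case, and capitals mark the poly(A) signal hexamer in the only stretch that holds it:
Ndrg4, chr8:98238734-98238793, plus strand: gcctaattttgtgtattctgtttggtggct
Ccdc92, chr5:125314939-125314998, minus strand: agaatgaatgcacttgccttaaaactcgct
Clca6, chr3:144615506-144615565, minus strand: cttcaagagggtctaaaaaatactttaagc
Chst5, chr8:114413064-114413123, minus strand: ggaggatggctttttaatgaatctttgatt
Zfp365, chr10:67348908-67348967, minus strand: gctgcagggccagtcaaatgtatagatgtt
Gm567, chr3:136962175-136962234, plus strand: atatattacacggagccaactcctgtgctg
Fam171b probe 1, chr2:83723111-83723170, plus strand: tacatacaaccttgaaactttataaagccc
Fam171b probe 2, chr2:83721451-83721510, plus strand: tttggaatgccgaaaatgaatagactgtgg
Aqp5 probe 1, chr15:99425138-99425197, plus strand: agatagatggttcgtcgagtgccatcttat
Aqp5 probe 2, chr15:99424655-99424714, plus strand: ccgtgtggctgtggtcaaaggcacatatga
unnamed probe near Aqp5, chr15:99425214-99425273, plus strand: tattcgggttgggcgtttcccAATAAAcca

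A level below is the log2 of a probe's signal relative to the 75th percentile of its array, so that 0 is the level of a fairly bright probe and each unit is a doubling. Levels of different probes cannot be set against each other. The 75th percentile lay between 429.8 and 562.1 signal units on the 12 arrays, and the share of probes well above background ran from 65.4% to 74.3%. All young arrays were on slide 1 and all old arrays on slide 2, so that age and slide cannot be told apart. The targeted gene went against its label: Slc6a6 had a mean of 3.17 in the young and 3.45 in the old arrays labelled TauTKO and of 2.39 and 2.60 in the matching WT arrays. Whether its probe lies outside the deleted part was not established, and directions here rest on the labels. The labels give nothing beyond a number on how replicates were taken, and p-values measure the spread between these samples.

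A single array stood apart. Old TauTKO replicate 1 had the highest level of all 12 arrays for 7 of 7 keratinocyte genes, a list made after the data were seen. Krt5, a keratin of basal keratinocytes, reached 5.19 there, against -1.30 and -1.09 in old TauTKO replicates 2 and 3. The epithelial cadherin Cdh1 lay at -0.35 there and at -5.21 and -5.42 in replicates 2 and 3. Of 7 slow fibre markers, 6 were also highest on that array, with the slow myosin Myh7 at 4.99, against -0.12 and -0.89. Old TauTKO levels of the member probes are therefore given for every array, and differences or bounds against old WT are given with and without replicate 1. All 10 member probes lay above all 9 arrays of the other groups on each old TauTKO array, values that chose the genes. Replicates 2 and 3 alone therefore show the same, and this is no check.

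**Figure D1:**
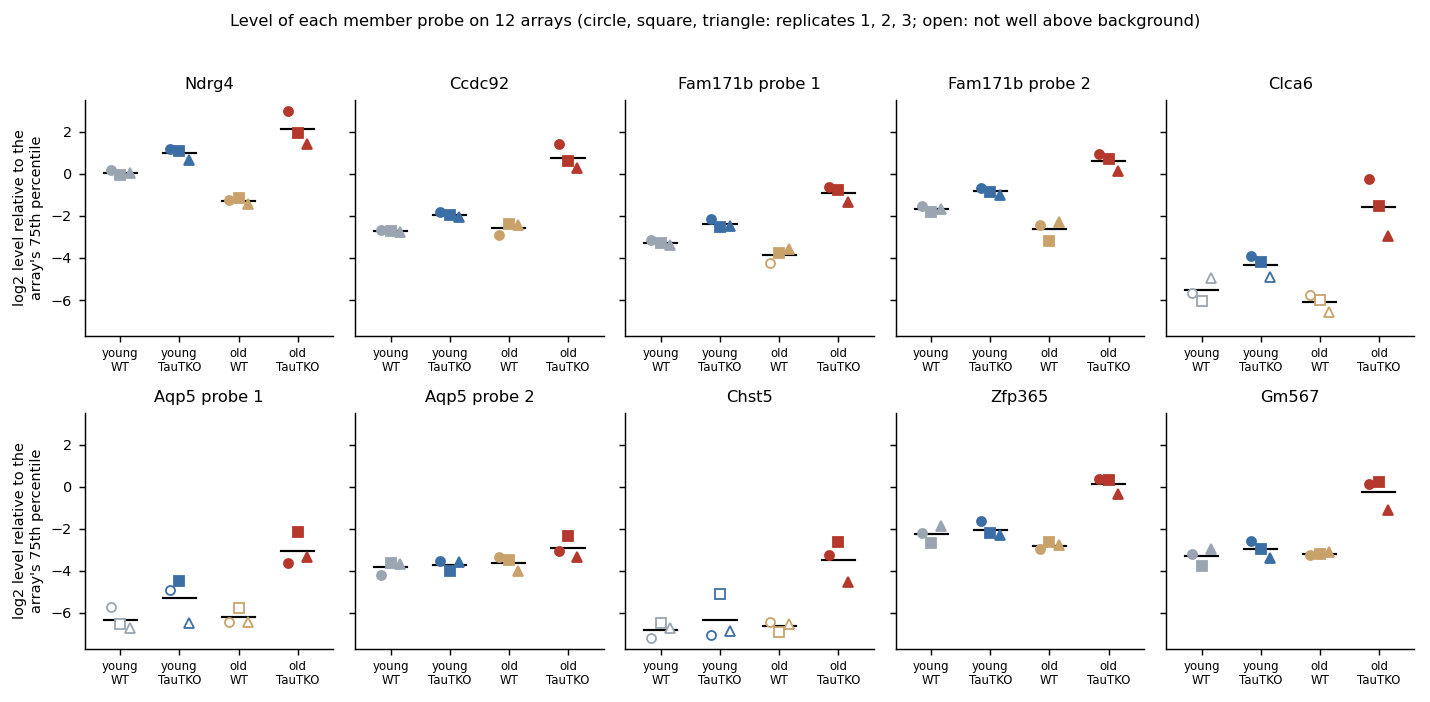
Level of each of the 10 member probes on each array (y axis, log2 relative to the 75th percentile of the array) by group (x axis). Circles, squares and triangles are replicates 1, 2 and 3, bars are group means of 3 arrays, and open symbols mark spots not well above background. Every old TauTKO array sits above every other array for all 10 probes, and replicate 3 is the lowest of the 3 for 9 probes.

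Aqp5 encodes aquaporin 5, the water channel of salivary, lacrimal and airway glands, and it was near the limit of detection. Its probe 1, from base 1428 of the transcript, had levels of -3.64, -2.14 and -3.35 on old TauTKO replicates 1, 2 and 3 and was well above background on all 3. The old WT levels of probe 1 were -6.41, -5.78 and -6.43 and the young WT levels were -5.71, -6.53 and -6.72, and none of these 6 was well above background. Young TauTKO gave -4.89, -4.50 and -6.48, and 1 array was well above background. The old TauTKO mean of probe 1 was at least 2.92-fold higher than old WT and at least 3.38-fold higher than young WT. Such a bound takes, on each dim array, the higher of the probe's own level and the lowest level of any probe well above background. It holds only for this way of handling background, and another way gave smaller gaps, as listed below. Measured means were -3.04 in old TauTKO, -6.21 in old WT and -6.32 in young WT. The array with keratinocyte genes was the lowest of the 3 old TauTKO arrays for Aqp5 probe 1, and without it the bound against old WT was 3.59-fold.

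The other Aqp5 probe told less. Probe 2, from base 945 of the transcript, was well above background on all 12 arrays, with -3.05, -2.32 and -3.34 in old TauTKO and -3.36, -3.49 and -4.01 in old WT. The 2 groups came within 0.02 of each other at their nearest arrays, and the means differed by 0.72 (1.65-fold) and by 0.79 without replicate 1, where the bound for probe 1 was 2.92-fold. Young WT (-4.20, -3.64 and -3.65) and young TauTKO (-3.52, -4.0 and -3.59) overlapped each other. The probes of this gene therefore had the same direction and disagreed on the size of the difference.

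A probe that the array files leave without a gene name lay 16 bases downstream of Aqp5 probe 1 on the same strand, and it was picked out after its values were seen. Its levels were -2.92, -1.95 and -2.13 in old TauTKO, all well above background, and -4.62, -4.65 and -5.01 in old WT, where 1 of 3 arrays was. Young TauTKO had -3.59, -2.78 and -4.76 and young WT -3.98, -4.39 and -3.89. Old and young TauTKO thus overlapped on this probe, and old TauTKO did not overlap either WT group. The measured means of old TauTKO and old WT differed by 2.43, and by 2.72 without replicate 1, with the old WT mean mostly from spots not well above background. Its old TauTKO replicates fell in the same order as those of probe 1, with replicate 2 highest and replicate 1 lowest. The poly(A) signal hexamer begins at base 22 of this probe.

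**Figure D2:**
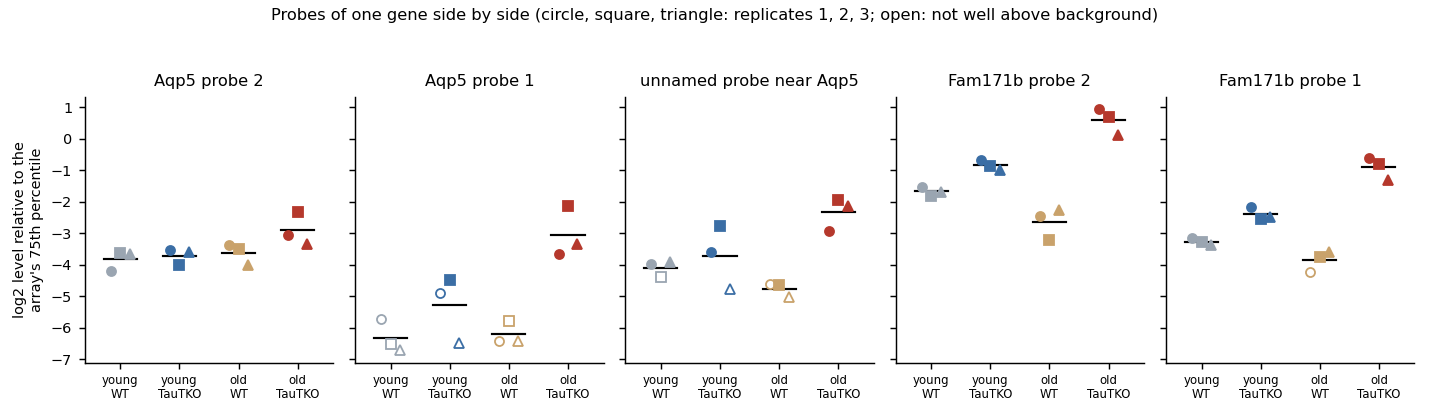
Level (y axis, log2 relative to the 75th percentile of the array) by group (x axis) for the probes at Aqp5, from upstream to downstream, and for the probes of Fam171b; symbols as in the plot of all member probes, with open symbols for spots not well above background. Old TauTKO exceeds old WT by 0.72 for Aqp5 probe 2 and by 3.23 and 2.96 for the Fam171b probes, while old WT is not well above background on any array for Aqp5 probe 1 and on 2 of 3 for the unnamed probe.

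Clca6, named Clca4a in the current reference, belongs to the regulators of calcium-activated chloride channels. It had levels of -0.23, -1.55 and -2.94 in old TauTKO, the widest spread of the 10 probes at 2.71 between the highest and the lowest array. Old WT gave -5.77, -6.01 and -6.55 and young WT -5.67, -6.02 and -4.93, with no array well above background in either. Young TauTKO stood between, at -3.90, -4.20 and -4.88, with 2 arrays well above background. The old TauTKO mean was at least 8.10-fold higher than old WT, from measured means of -1.57 and -6.11. The highest of the 3 was the array with keratinocyte genes, and without it the bound fell to 5.09-fold. Whether RNA of other cells took part in the level on that array was not tested.

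Chst5 transfers sulfate to N-acetylglucosamine of glycans such as keratan sulfate. Its probe was well above background on the old TauTKO arrays (-3.25, -2.65 and -4.53) and on none of the other 9. Old WT levels were -6.43, -6.92 and -6.52, young WT levels -7.18, -6.48 and -6.72, and young TauTKO levels -7.05, -5.12 and -6.84. The old TauTKO mean was at least 2.17-fold above old WT, 2.51-fold above young WT and 2.95-fold above young TauTKO, from measured means of -3.47, -6.62, -6.79 and -6.34. The value against old WT was 2.01-fold without replicate 1. Clca6, Chst5 and Aqp5 probe 1 passed the filter on dim probes only through old TauTKO, the group in which they were high. The bound therefore carries the size for these 3 probes, and no measured difference from a group below background is given on this scale.

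Ndrg4 belongs to the NDRG family, which resembles hydrolases without their catalytic residues, and is known from neurons and heart. Levels in old TauTKO were 3.00, 1.92 and 1.43. Young TauTKO followed at 1.18, 1.1 and 0.66, then young WT at 0.18, -0.05 and 0.04 and old WT at -1.23, -1.17 and -1.42. The 4 groups did not overlap in this order, and the nearest arrays of old and young TauTKO were 0.25 apart. Old TauTKO exceeded old WT by 3.39, and by 2.95 without replicate 1. The gap to the next group, young TauTKO, was 1.14, and 0.69 without replicate 1.

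Fam171b, a membrane protein of little known function that is found in brain, was measured by a pair of probes that moved together. The brighter of the pair, probe 2, had 0.95, 0.71 and 0.12 in old TauTKO, -0.67, -0.85 and -0.99 in young TauTKO, -1.52, -1.80 and -1.68 in young WT and -2.45, -3.21 and -2.27 in old WT. Probe 1 gave -0.60, -0.79 and -1.31 in old TauTKO, -2.15, -2.54 and -2.47 in young TauTKO, -3.16, -3.27 and -3.36 in young WT and -4.24, -3.75 and -3.59 in old WT. Both probes ranked the groups in the same order as Ndrg4, with no overlap between neighbours. Old TauTKO exceeded old WT by 3.23 on probe 2 and by 2.96 on probe 1, and by 3.06 and 2.81 without replicate 1. On old WT replicate 1, probe 1 was not well above background.

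Ccdc92 encodes a coiled-coil protein of the centriole and cilium. Old TauTKO had 1.41, 0.61 and 0.28, young TauTKO -1.79, -1.98 and -2.05, young WT -2.68, -2.70 and -2.75 and old WT -2.93, -2.39 and -2.44. The lowest old TauTKO array was 2.07 above the highest array of any other group, the widest clear distance of the 10 probes. Young TauTKO lay above both WT groups, and the WT groups overlapped. Old TauTKO exceeded old WT by 3.36, and by 3.03 without replicate 1.

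Zfp365 encodes a zinc finger and coiled-coil protein studied in neurons and in the maintenance of the genome. It had the tightest old TauTKO group (0.37, 0.32 and -0.32, a range of 0.69), against -2.97, -2.65 and -2.76 in old WT. Young WT (-2.21, -2.68 and -1.85) and young TauTKO (-1.65, -2.19 and -2.27) overlapped. Old TauTKO exceeded old WT by 2.91, and by 2.79 without replicate 1.

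Gm567 is a predicted gene that the current reference lists as a long non-coding RNA. It had levels of 0.12, 0.24 and -1.11 in old TauTKO and of -3.26, -3.20 and -3.11 in old WT. Young WT gave -3.20, -3.78 and -2.95 and young TauTKO -2.56, -2.94 and -3.38. These other 3 groups overlapped. The difference from old WT was 2.94, and 2.76 without replicate 1.

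By the rule that chose the genes, every old TauTKO array exceeded every other array for 10 of 10 member probes, as it did for 2.52% of the 38945 probes with a value on all arrays. In the comparison of old TauTKO with old WT, 9 of the 10 probes passed the call rule (a limma adjusted p below 0.05 together with a change of 1.8-fold or more) and all 9 were higher, where 2.08% of 38973 tested probes were called and 1.4% were called higher. The exception was Aqp5 probe 2. Nothing is read from these counts, since this contrast chose the genes. Among the 7 probes with an array above background in every group, the gap between the old TauTKO mean and the highest other group mean was 2.71 for both Gm567 and Ccdc92, 2.16 for Zfp365, 1.49 and 1.43 for the Fam171b probes, 1.14 for Ndrg4 and 0.72 for Aqp5 probe 2. Gaps depended on how background was handled. With normexp background correction they were 1.86 for Gm567, 2.20 for Ccdc92, 1.66 for Zfp365, 1.01 for Fam171b probe 1 and 1.06 for Ndrg4, and those of Clca6, Aqp5 probe 1 and Chst5 were 1.38, 0.66 and 0.60. Young TauTKO was the highest of the other 3 groups for 6 of the 7 probes.

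The rule set old TauTKO against both young groups, so the young levels entered the choice of the genes, and the comparison of young TauTKO with young WT below is not independent of it. Clca6, Aqp5 probe 1 and Chst5 were not well above background on any young WT array, and no young difference is given for them. The other 7 probes had a higher mean in young TauTKO than in young WT, with a median difference of 0.77, while 44.6% of all tested probes were higher and their median was -0.03. None of the 7 passed the call rule in limma, where 0.375% of all probes did. Among them 4 reached an unadjusted p under 0.05, as did 12.8% of all probes. The arrays of the 2 young groups did not overlap for these 4 (Ndrg4, Ccdc92 and both probes of Fam171b), with TauTKO above, as for 9.82% of all probes.

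Fam171b probe 1 differed by 0.88 between the young groups (SE 0.21, limma adjusted p = 0.0931) and probe 2 by 0.83 (SE 0.26, limma adjusted p = 0.195). Ndrg4 differed by 0.92 (SE 0.32, limma adjusted p = 0.246), and it passed at an adjusted p of 0.0417 when old TauTKO replicate 1, which enters this test only through the shared estimate of spread, was left out. Ccdc92 differed by 0.77 (SE 0.25, limma adjusted p = 0.214). The mean differences of Zfp365 and Gm567 were 0.21 and 0.35, with SEs of 0.26 and 0.35, and that of Aqp5 probe 2 was 0.12.

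**Figure D3:**
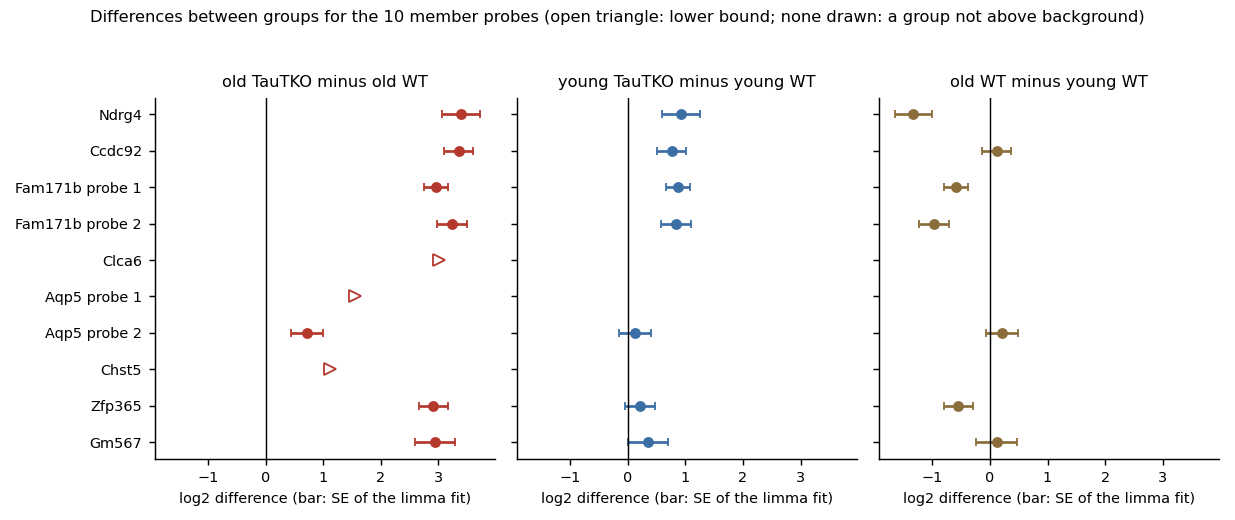
Differences between group means (x axis, log2) for the 10 member probes (y axis) in 3 comparisons, with bars for the SE of the limma fit over 12 arrays; open triangles are lower bounds against an old WT group not above background, and no point is drawn where young WT was not above background. Old TauTKO minus old WT, which entered the choice of the genes, runs from 0.72 to 3.39 for the 7 measured probes, with bounds of 3.02 for Clca6, 1.55 for Aqp5 probe 1 and 1.12 for Chst5; young TauTKO minus young WT runs from 0.12 to 0.92 and old WT minus young WT from -1.33 to 0.21.

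In WT muscle the genes went different ways between 3 and 18 months. Both WT groups also entered the choice of the genes. Of the 7 measured probes, 3 were higher in old WT, with a median difference of -0.55 against 0.03 for all tested probes. Of the 7, 1 was called, and 1.55% of all probes were. This was Ndrg4, which fell by 1.33 (SE 0.32, limma adjusted p = 0.0445), and the call was lost without any one of 10 arrays, the exceptions being old TauTKO replicates 1 and 3. Both Fam171b probes were lower in old WT with no overlap, by -0.60 (limma adjusted p = 0.130) and -0.98 (limma adjusted p = 0.0617), and with Ndrg4 they made 3 of 7 probes whose old WT arrays all lay below young WT, against 14.2% of all probes. The slides differ in the same way as the ages, as said above.

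The 5 genes with the profile most like the median of the 8 lead probes (the probe of each gene with the largest gap between old TauTKO and the highest other group) were found by the root mean square difference over 12 arrays, with each probe centred on its own mean. They were Slc6a17, a transporter of neutral amino acids in synaptic vesicles (0.38), Gm5458 (0.40), Cpne2, a calcium-dependent phospholipid-binding protein (0.40), Gm5797 (0.40) and Ranbp3l, a nuclear export factor (0.46). Their means in old TauTKO exceeded those in old WT by 2.47, 2.84, 2.39, 3.13 and 2.43 in that order. Without replicate 1 these differences were 2.14, 2.95, 2.12, 3.27 and 2.53. They were chosen for their likeness on the same arrays, and no test is given for them. All 5 had their lowest old TauTKO level on replicate 3, as 9 of the 10 member probes did. The choice by likeness favours this, since the median profile was also lowest there among the old TauTKO arrays.

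**Figure D4:**
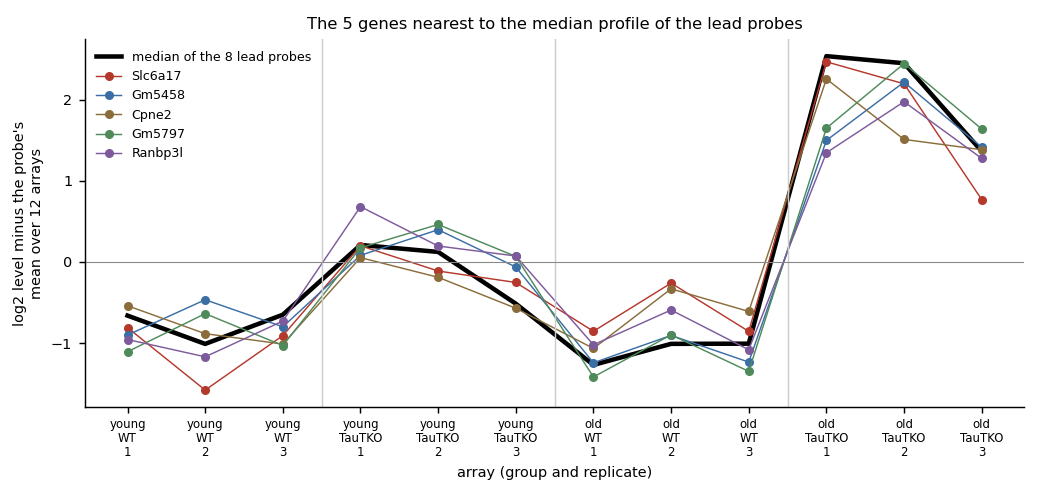
Level of each probe minus its mean over the 12 arrays (y axis, log2) on each array (x axis, group and replicate) for the 5 genes nearest to the members, with the median of the 8 lead probes as a thick line. All 6 lines have their highest 3 values in old TauTKO, and young TauTKO lies above young WT in the mean of each line.

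Relatives of Ndrg4, Fam171b, Aqp5 and Clca6, from lists made for this description, gave no call. None of 3 NDRG genes, 2 FAM171 genes, 8 tested aquaporins and 2 tested CLCA genes passed the call rule in old or young muscle by limma. Of these 15 genes 4 in old and 1 in young muscle had an unadjusted p under 0.05, as did 22.8% and 12.8% of all probes. Fam171a1 differed by 0.54 in old muscle (SE 0.11, limma adjusted p = 0.0173), and Aqp1, the water channel of capillaries, by -0.69 (SE 0.15, limma adjusted p = 0.0276), both under the fold threshold. Clca2 had 1.04 on old TauTKO replicate 1 against -3.41 and -3.82 on replicates 2 and 3 (limma adjusted p = 0.173 for the old groups), and 1 of 3 old WT arrays was well above background. Of 12 tested carbohydrate sulfotransferases, Chst11, which acts on chondroitin, was called higher in old TauTKO by 1.49 (SE 0.24, limma adjusted p = 0.00728) and Chst3 in young TauTKO by 1.1 (limma adjusted p = 0.0269), a call lost without any one of the 6 young arrays. Chst11 differed by 1.30 without old TauTKO replicate 1 (limma adjusted p = 0.024).

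In the response to hypertonicity, of 8 genes tested, 4 were called higher in old TauTKO, and 1 in young TauTKO. Of all tested probes 2.08% and 0.375% were called, in either direction. Slc38a2, an amino acid transporter, rose by 0.98 in old (SE 0.15, limma adjusted p = 0.00575) and by 1.1 in young muscle (limma adjusted p = 0.015), where the call was lost without any one of 4 arrays. Slc6a12, the betaine transporter, rose by 1.1 in old muscle (limma adjusted p = 0.0208), and the heat shock genes Hspa1a and Hspa4l rose by 2.04 and 0.91. Without old TauTKO replicate 1 neither was called. Hspa1a then differed by 1.81 (limma adjusted p = 0.0767). Hspa4l differed by 0.8476 (limma adjusted p = 0.00873) and missed only the fold threshold, which is 0.8480 in log2. The factor Nfat5 itself differed by 0.05 (limma adjusted p = 0.881). Akr1b3 differed by 0.11 (limma adjusted p = 0.532) and Slc5a3 by 0.29 (limma adjusted p = 0.722). Sgk1 was lower, by -0.84 (limma adjusted p = 0.0565), and was not called.

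At the neuromuscular junction 1 of 13 genes, the acetylcholine receptor subunit Chrnb1, was called in old TauTKO, 0.99 higher (SE 0.11, limma adjusted p = 0.00136). Among 15 genes of denervation and regeneration, the adhesion molecule Ncam1 rose by 2.16 (SE 0.22, limma adjusted p = 0.00123), the transcription factor Runx1 rose by 1.44 (limma adjusted p = 0.00916) and Dach2, which represses myogenin, fell by 1.82 (limma adjusted p = 0.00488). Myogenin (Myog) differed by 0.03 (limma adjusted p = 0.96). In all, 16 of the 123 list genes tested were called in old and 4 in young TauTKO muscle, where 2.08% and 0.375% of all probes were. Without old TauTKO replicate 1, 10 of the 16 and 2 others were called in old muscle. The young count fell to 0 without any one of 4 arrays and to 1 with the replicate number as a block. The study names some of these genes in its text from the same arrays, and without those 8 of 110 were called in old and 1 in young muscle, so that the lists are not independent evidence of a direction.

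Some markers of other cells also differed between old TauTKO and old WT. In old TauTKO 6 of 6 macrophage markers were higher and 3 were called (Emr1 by 1.15, Mrc1 by 1.05 and Lyz2 by 0.95), and their summed signal was 16.01 to 17.6 times the 75th percentile in old TauTKO and 8.95 to 11.3 times in old WT. In young muscle it was 13.8 to 15.0 in WT and 14.6 to 18.9 in TauTKO. Of 5 fibroblast markers, Col1a1 and Col3a1 were called higher in old TauTKO, by 0.89 and 0.88, with sums of 175.4 to 203.5 against 125.9 to 137.5 in old WT. Both young groups had higher sums, 263.1 to 272.5 in WT and 313.2 to 391.5 in TauTKO. Of these 5 called genes only Emr1 was called without old TauTKO replicate 1. Col1a1 then differed by 0.76 (limma adjusted p = 0.0262) and missed only the fold threshold. No fat cell or endothelial marker was called, and 5 of 5 and 1 of 4 of them were higher in old TauTKO. Of 10 fast fibre markers 9 were lower in old TauTKO, with none called by limma. An unadjusted p under 0.05 was reached by 6 of them and by 22.8% of all probes. Fast fibre sums were 6738 to 7418 in old TauTKO against 8075 to 9092 in old WT. Of 4 tested satellite cell markers 1 was higher, Cdh15 by 0.63 (limma adjusted p = 0.00656, under the fold threshold). Pax7, Calcr and Chodl were lower, by -0.37, -0.85 and -0.72, with none called. The sums were 7.78 to 8.94 against 5.54 to 6.15, made up mostly of the Cdh15 signal. Of 7 slow fibre markers 6 were higher in old TauTKO, none of them called, with a median difference of 1.16 over the list. Those 6 were also the ones highest on replicate 1. The exception was the slow fibre light chain Myl3, called lower by -4.18 (limma adjusted p = 0.049), and by -5.73 without replicate 1. Myl3 was also lower in young TauTKO, by -3.75 (SE 1.07, limma adjusted p = 0.153), with no call. Its means of 6.97 in young WT and 6.28 in old WT were the highest of the list there, so it weighs most in the slow fibre sums of WT. None of 8 Schwann cell and 6 tested neuron markers was called by limma in either comparison. Of these 14 genes 1 in old and 0 in young muscle had an unadjusted p under 0.05, against 22.8% and 12.8% of all probes. Among the epithelial and gland markers 1 of 5 tested, Krt18, was called higher, at 2.38, 1.44 and 1.27 in old TauTKO, while of the old TauTKO arrays only replicate 1 had Epcam and Cdh1 well above background. The muscle actin Acta1, the defining gene of the labelled tissue, had group means between 9.99 and 10.4. In RNA from whole muscle fewer cells of a type and less RNA per cell cannot be told apart, and the part of these markers in the members' levels was not tested.

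**Figure D5:**
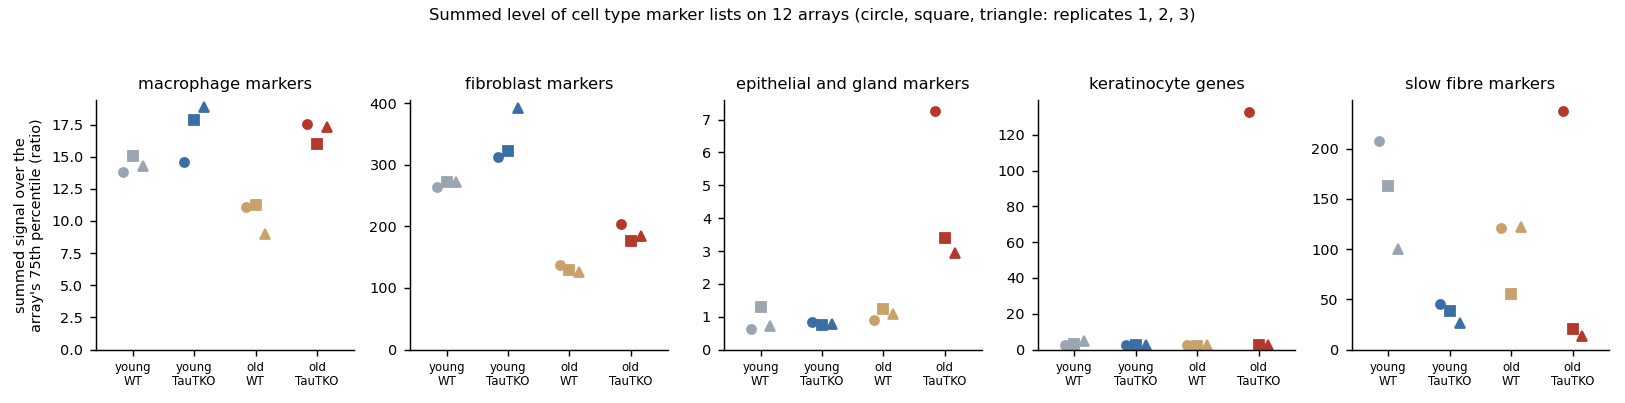
Summed signal of 5 marker lists on each array, as a ratio to the 75th percentile of the array (y axis, linear from 0), by group (x axis); circles, squares and triangles are replicates 1, 2 and 3. Old TauTKO replicate 1 stands alone for the keratinocyte genes (132.8 against at most 4.97 on every other array), while the macrophage sum is raised on all 3 old TauTKO arrays over old WT.

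Neighbouring genes were looked up next. Within 100 kb of the lead probes the array carried 52 probes under 27 other names. Of 31 tested probes only the unnamed probe beside Aqp5 was called in old muscle by limma, and none in young muscle. There 3 had an unadjusted p under 0.05, as did 12.8% of all probes. No neighbouring probe was listed for Zfp365 and Gm567. The promoter table used here, taken from RefSeq (GRCm38.p6), was matched at 9 promoters of 6 of the 8 genes, 4 of them for Ndrg4, and the 250 bases before the start site were searched on both strands for 5 motifs. CAGCTG, the E-box of myogenic factors, TGANTCA of AP-1, TGATGNAA of C/EBP and ATF factors and the cyclic AMP element TGACGTCA were found in none, and they occur in 13.0%, 6.75%, 3.45% and 1.55% of all 32851 promoters of the table. TGGAAA, searched here for the tonicity element, was found in 2 of the 9, in Zfp365 and Gm567, and in 18.6% of all. No base beside this short stretch was required to match, and binding of Nfat5 was not tested. The promoters of Gm567 and Zfp365 are shown 5′ to 3′ on the strand of the gene, with each match in capitals (TTTCCA is TGGAAA on the other strand):
Gm567, GRCm38.p6 chr3:137289367-137289616, plus strand: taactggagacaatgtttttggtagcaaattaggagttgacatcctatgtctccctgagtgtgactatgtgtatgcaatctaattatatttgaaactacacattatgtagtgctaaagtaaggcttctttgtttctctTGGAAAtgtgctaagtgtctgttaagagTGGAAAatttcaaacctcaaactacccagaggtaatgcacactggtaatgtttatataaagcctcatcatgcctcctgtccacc
Zfp365, GRCm38.p6 chr10:67912663-67912912, minus strand: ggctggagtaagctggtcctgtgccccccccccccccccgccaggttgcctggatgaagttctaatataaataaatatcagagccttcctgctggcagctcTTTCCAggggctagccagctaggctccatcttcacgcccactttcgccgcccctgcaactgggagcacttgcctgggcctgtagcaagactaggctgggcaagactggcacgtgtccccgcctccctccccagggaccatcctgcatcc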

How the data were processed

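The authors deposited a scanner file for each array, produced per the labels by Agilent Feature Extraction 10.10.1.1, holding an intensity for each spot after the software's background correction. A deposited summary of the whole series holds those intensity values rounded: at least 99.9% of 55249 single-spot probes lay within 0.51 units of a scanner file. In it old WT replicates 1 and 2 are swapped against the scanner files, as are old TauTKO replicates 1 and 2, and replicates here follow the scanner files. The paper's methods name GeneSpring, an unpaired test and a 1.8-fold threshold.

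For this work R 4.3.3 (package data.table, version 1.17.8) took log2 of the intensity and subtracted the 75th percentile found on the same array. Controls and 1465 outlier spots were removed, then repeat spots were averaged per probe. limma 3.58.1 fitted 4 group means to 38973 probes that rose well above background throughout at least 1 group of 3 arrays, with two-sided tests and Benjamini-Hochberg adjustment. A call needed an adjusted p below 0.05 and a 1.8-fold change or more. The fit was tested on simulated data. The number of arrays limits the precision. Members, lists and tests were chosen with earlier results of these data known. All probes bearing a member's name were kept apart, and the named genes were these, the 5 nearest profiles, neighbours within 100 kb and list genes called or most moved. Others were named after their values were seen. List genes used their brightest probe. Same-numbered replicates were not treated as pairs.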

Additional observations from a re-analysis of the deposited data

Results flagged for a closer look

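Between young and old muscle, 2 genes moved one way in TauTKO and the opposite way in WT on every array, without overlap of the age groups. Ndrg4 was 1.14 higher (log2) in old than in young TauTKO and 1.33 lower in old than in young WT, a log2 difference of -1.33. Fam171b probe 1 showed 1.49 in TauTKO and -0.60 in WT, and its probe 2 showed 1.43 and -0.98. The rise in TauTKO was fixed by the choice of the genes, and all 10 member probes had it without overlap. Only the WT part could vary, and old WT lay below young WT without overlap for 14.2% of all probes. The share of all probes that meet both conditions was not computed. The difference between the genotypes was not tested, since old TauTKO levels chose these genes, and age and slide cannot be told apart in either genotype.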

How the results depend on the processing

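The labels do not say whether the replicate numbers pair mice, and the main fit did not treat them as pairs. Deviations of same-numbered young arrays correlated at 0.00, 0.04 and 0.32, and of old arrays at -0.14, 0.06 and -0.05. These values cannot decide whether mice were paired. With the replicate block, the member probes called were 0 in young muscle and 1 with age, as in the fit without it, and the list genes called in young muscle fell from 4 to 1 (14 against 16 in old muscle). The count of 0 member probes in young muscle became 3 of 10 (Ndrg4, Clca6 and Fam171b probe 1) by the methods' unpaired test at its unadjusted threshold, where 1.13% of all probes passed, and 0 after Benjamini-Hochberg adjustment. Clca6 was not well above background on any young WT array, so its pass is no measured difference. The 1 probe called with age became 0 with median scaling, 0 without a filter on dim probes, 2 of the 6 left when all 12 arrays had to be above background (Ndrg4 and Fam171b probe 2), and 2 by the methods' test. Leaving out 1 array in turn gave 0 to 1 young calls, 0 to 2 age calls, 0 to 4 young and 10 to 17 old list genes; the young list count was 0 without young WT replicate 1 or 3 or young TauTKO replicate 1 or 2, 1 without young WT replicate 2 or young TauTKO replicate 3 and 2 without old WT replicate 2 or old TauTKO replicate 2 or 3, the old count was 10 without old WT replicate 3, and the age count was 2 without old TauTKO replicate 1 or 3. Without the genes the study names, an alternative chosen after seeing the data, 1 and 8 list genes were called. All 8 lead probes kept old TauTKO above every other array under each alternative run, except normexp background correction, with 7 of 8 (not Chst5). Leaving out an array could not change this count. Of the lead-probe differences only small uncalled values changed sign, and the cause was not tested. With age, Chst5 turned to -0.0555 under quantile normalization and Gm567 to -0.00782 under normexp. On leaving out 1 array, the age differences ran from -0.0212 to 0.33 for Chst5, from -0.12 to 0.30 for Gm567 and from -0.0996 to 0.42 for Aqp5, and the young differences from -0.00969 to 0.41 for Zfp365 and from -0.15 to 0.82 for Chst5. A slide or scan block could not be fitted to the age comparison and holds both young groups whole. Array row as a block, added after seeing the data, gave 0 and 1. Clca6, Aqp5 probe 1 and Chst5 are limited by background in WT muscle.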
